A study of Mus musculus with 2 samples.

Results

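Chemokine ligand genes and chemokine receptor genes were compared between E2A-deficient mouse haematopoietic progenitor cells carrying E47ER and E2A-deficient cells carrying bHLHER. The genes were chosen by symbol: those beginning with Ccl, Cxcl, Ccr, Cxcr or Xcr and a digit, and Xcl1, Cx3cl1, Cx3cr1, Pf4 and Ppbp. Of 10141 named genes with a value on the arrays, 51 met this rule, of which 36 encode ligands and 15 encode receptors. Each of the 51 was read by 1 probe. A further 9 genes of the RefSeq table that fit the rule, among them Cxcr3 and Cxcr4, had no named probe and were not analysed here.

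Chemokines are small secreted proteins that guide leukocytes along gradients. They are sorted into CC, CXC, XC and CX3C families by the spacing of their first cysteines, and they act through receptors that span the membrane and couple to inhibitory G proteins. In bone marrow they hold progenitors in their niches and direct progenitors to the thymus, while inflammatory members released by myeloid cells recruit monocytes, neutrophils and lymphocytes. E47 is a DNA-binding protein encoded by the E2A gene (Tcf3), needed for early B and T cell development, and it binds as a dimer to short DNA motifs called E-boxes.

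Both groups lacked E2A, so neither is a wild-type cell. Per the design text the progenitors of 1 group were infected with E47ER and those of the other with bHLHER, with 48 h from infection to induction and 6 h of 4-hydroxytamoxifen for both. By their names both proteins are fusions to the oestrogen receptor (ER), whose hormone-binding part responds to this drug, and bHLHER carries a basic helix-loop-helix region, the part of E proteins that contacts DNA and forms dimers. The labels do not say what else either construct holds, nor how many animals or cultures the RNA came from, and the label of the bHLHER sample names E2A-deficient haematopoietic cells and mentions neither progenitors nor infection. Total RNA was labelled with Cy5 and read on CodeLink mouse arrays, 1 array for each group. No value below therefore has a replicate check, and no p-value is given. With no uninduced array, a gene higher with E47ER cannot be told apart from one lower with bHLHER, and in such bulk RNA fewer cells of a type and less RNA per cell cannot be told apart either.

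Each array held 20289 probes, and the deposited values were linear intensities in arbitrary units. The median over all probes, 0.957 with E47ER and 0.953 with bHLHER, served as the floor, and a gene above it on both arrays received a log2 ratio of E47ER over bHLHER. A gene above it on 1 array received a lower bound only. A ratio of at least 2-fold was called higher or lower, a limit of size with no test behind it. Over all 5534 genes above both floors, 2.31% were called higher, 0.813% lower and 3.13% either way, and the median log2 ratio was -0.05. No spread between samples could be measured. That between probes, which does not stand in for it, came from 34 genes with a pair of probes above both floors, whose log2 ratios differed by a median of 0.236 and with an SD of 0.376 once the widest pair was left out (0.758 with it). Pan-leukocyte genes were above the floor of both arrays in 19 of 21 cases, among them Ptprc (CD45). So were the progenitor receptor genes Kit (2.997 with E47ER and 2.66 with bHLHER) and Flt3 (2.19 and 1.997). No list of progenitor genes was examined, and these genes were picked from the mast cell and basophil list and the dendritic list. Of the 8 mast cell and basophil genes with a value, 6 were below both floors, among them Gata2 (0.0924 and 0.166). Mpo (0.298 and 0.537) and Elane (0.104 and 0.0817) were below both floors too. The pan-leukocyte genes had a median log2 ratio of 0.43 and a summed intensity of 724 with E47ER and 482 with bHLHER, and 15 stromal and endothelial markers summed to 45.6 and 77.0. Of the pan-leukocyte genes, Cd52, Itgb2 and Laptm5 were 2.54-, 2.53- and 2.13-fold higher with E47ER. Among lymphoid markers Lat was 4.95-fold, Ly6d at least 16.3-fold and Ptcra at least 2.15-fold higher, and Rag2 was 2.09-fold lower. These are only the lymphoid markers past 2-fold. Of 11 B lineage genes with a value, 5 were below both floors, and the 2 above both had a median log2 ratio of -0.39. Of 14 T and natural killer genes, 9 were below both floors, and the 3 above both had a median of -0.14. Neither the pan-leukocyte nor the stromal list had a member at 0, and the part of either in the results below was not tested.

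Most chemokine genes were dim and most of those that were not differed little between the arrays. Of the 51 genes, 16 were above the floor on both arrays, 2 with E47ER only, none with bHLHER only and 33 on neither. These 16 are 31.4% of the genes, where 54.6% of all named genes lay above both floors. Across the 10141 named genes, 180 passed just the E47ER floor, 171 just the bHLHER floor and 4256 neither. Counts of 2 and 0 among 51 genes are too small to show a lean to either array. None of the 16 was at least 2-fold higher with E47ER and 2 were at least 2-fold lower, the ligand gene Ccl3 and the receptor gene Ccr2. The other 14 lay between -0.44 and 0.58 on the log2 scale, and 13 of them were within 0.5 of 0, as were 82.5% of all genes above both floors. Both calls were in 1 direction, where 0.813% of all genes were called lower, but a count of 2 among 16 genes is small.

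**Figure D1:**
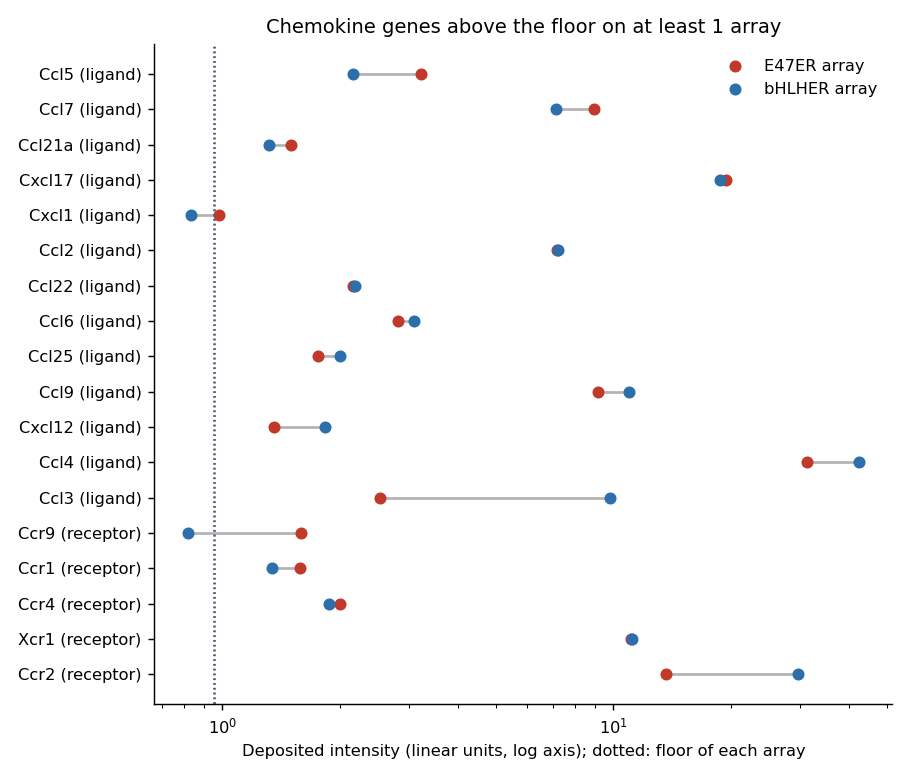
Deposited intensity on the E47ER array (red) and the bHLHER array (blue), in linear units on a log axis, for the 18 chemokine genes above the floor on at least 1 array, with each array's floor as a dotted line. Ccl3 (2.53 against 9.82) and Ccr2 (13.6 against 29.7) have the widest gaps toward bHLHER, while for Xcr1, Ccl2 and Ccl22 the points nearly coincide.

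Among ligands, 12 of 36 were above both floors, with 0 higher, 1 lower and 11 between, and their median log2 ratio was -0.08. The CC family held 10 of these 12. The receptors had 4 of 15 above both floors, with 0 higher, 1 lower and 3 between, and a median of 0.05. Both medians lay close to the -0.05 of all genes.

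The inflammatory CC ligands Ccl3, Ccl4, Ccl5, Ccl6 and Ccl9 were all above both floors. Ccl3 (MIP-1 alpha), an inflammatory chemokine that attracts monocytes and lymphocytes and has also been described as a brake on stem cell division, read 2.53 on the E47ER array and 9.82 on the bHLHER array. This was 3.88-fold lower with E47ER, a log2 ratio of -1.95, and only 2 of the 5534 genes had a lower ratio. On the E47ER array its probe stayed 1.40 log2 units above the floor, and on the bHLHER array it was far above. Ccl4 (MIP-1 beta), its close relative, read 31.2 with E47ER and 42.4 with bHLHER, a log2 ratio of -0.44. It was bright on both arrays, and its difference was small beside that of Ccl3.

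Ccl9 (MIP-1 gamma), a Ccr1 ligand found in rodents, had intensities of 9.12 with E47ER and 10.98 with bHLHER and a log2 ratio of -0.27. Ccl6, another rodent ligand of Ccr1, had 2.82 and 3.10 and a ratio of -0.14. Both lay inside the middle 95% of all genes, which ran from -0.79 to 0.96. Ccl5 (RANTES), made by T cells, macrophages and platelets, went the other way, at 3.22 with E47ER and 2.16 with bHLHER. Its log2 ratio of 0.58, a 1.49-fold higher level, was the highest of any chemokine gene above both floors and still under the size threshold.

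In the mouse genome Ccl5, Ccl9, Ccl6, Ccl3 and Ccl4 lie in this order in 1 block on chromosome 11, with no other protein-coding gene between them in the RefSeq table. Their log2 ratios along the block were 0.58, -0.27, -0.14, -1.95 and -0.44. The ratio of Ccl3 was thus 2.85-fold below that of its immediate neighbour Ccl4, a difference of -1.51 on the log2 scale, and 5.79-fold below that of Ccl5. These differences within the arrays are free of any common scaling. The spread of such a difference between samples could not be measured with 1 array a group.

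Ccr1, a receptor for Ccl3, Ccl5, Ccl6 and Ccl9 on monocytes and neutrophils, was near the floor, at 1.58 with E47ER and 1.34 with bHLHER, with a log2 ratio of 0.24. This ratio was small, on the same side of 0 as that of Ccl5 and on the other side from those of Ccl3, Ccl6 and Ccl9.

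Ccr2, the receptor that brings monocytes out of the marrow and is also found on early progenitors, read 13.6 on the E47ER array and 29.7 on the bHLHER array. It was 2.18-fold lower with E47ER, a log2 ratio of -1.13, and 25 of the 5534 genes (0.452%) had a lower ratio. The probe was far above the floor on both arrays. The ligands of Ccr2 were nearer to level. Ccl2 (MCP-1), its main ligand, had 7.17 with E47ER and 7.22 with bHLHER, and Ccl7 (MCP-3) had 8.92 and 7.13, with log2 ratios of -0.01 and 0.32. The third ligand, Ccl12 (MCP-5), was below the floor on both arrays, at 0.444 and 0.492. The log2 ratio of Ccr2 minus that of Ccl2 was -1.12, and minus that of Ccl7 it was -1.45.

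Beside Ccr2 and Ccl3, monocyte and macrophage markers differed in both directions. Of 10 such genes with a value, 6 were above both floors, 1 with E47ER only and 1 with bHLHER only, none was at 0, and the list summed to 37.9 with E47ER and 45.6 with bHLHER. The lectin receptor gene Clec4e was 4.05-fold lower with E47ER and Clec4d at least 3.70-fold lower, while the scavenger receptor gene Marco was 4.86-fold higher. Lyz2, the lysozyme gene of myeloid cells, had 3.01 with E47ER and 4.82 with bHLHER, and Cd14 had 2.65 and 3.17. Itgam (CD11b), above the floor with E47ER only, went the other way, at 1.69 and 0.487, at least 1.77-fold higher. Of the 6 genes above both floors, 1 had a log2 ratio above 0 and 5 below it. The list's median log2 ratio was -0.44, and its part in the lower values of Ccr2 and Ccl3 was not tested.

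Ccr9, the receptor for Ccl25 that guides progenitors to the thymus and T cells to the small intestine, passed the floor on the E47ER array alone, at 1.59 against 0.817. It was at least 1.67-fold higher, a bound under the size threshold, and of the 180 genes above the floor with E47ER only, 19.4% had a bound of 2-fold or more. Its ligand gene Ccl25, made by thymic and gut epithelium, was dim on both arrays, at 1.75 with E47ER and 2.003 with bHLHER, with a log2 ratio of -0.19. Ccr9 lies next to Lztfl1 among the protein-coding genes of chromosome 9, and Lztfl1 had 50.6 with E47ER and 8.84 with bHLHER, a 5.73-fold higher level. Further along the same stretch lie Fyco1, Cxcr6, Xcr1, Ccr1, Ccr1l1, Ccr3 and Ccr2, in this order. Xcr1 and Ccr1 had log2 ratios of -0.01 and 0.24, Ccr2 had -1.13, and the others were below the floor on both arrays. These neighbours did not share a direction.

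The stretch of 250 bases before the transcription start is shown for Ccl3 and Ccr2, the genes past the size threshold, and for Ccr9, which among the receptors above a floor had the highest value relative to bHLHER, a lower bound since its bHLHER value was below the floor. The sequences are from RefSeq (GRCm38.p6), 5′ to 3′ on the gene's own strand, and the capitals mark every E-box of the general form CANNTG, which reads the same on both strands. The window of Ccl3 is chr11:83649379-83649628 on the minus strand, that of Ccr2 chr9:124101933-124102182 on the plus strand and that of Ccr9 chr9:123766961-123767210 on the plus strand.
Ccl3: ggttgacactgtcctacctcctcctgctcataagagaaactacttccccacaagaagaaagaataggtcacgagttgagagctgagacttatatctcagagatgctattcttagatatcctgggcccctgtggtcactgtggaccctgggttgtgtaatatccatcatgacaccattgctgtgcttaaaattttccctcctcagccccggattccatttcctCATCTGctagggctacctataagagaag
Ccr2: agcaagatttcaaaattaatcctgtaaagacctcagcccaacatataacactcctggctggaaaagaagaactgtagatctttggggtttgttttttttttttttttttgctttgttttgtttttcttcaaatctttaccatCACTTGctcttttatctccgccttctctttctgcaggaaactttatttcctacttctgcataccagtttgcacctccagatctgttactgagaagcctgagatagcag
Ccr9: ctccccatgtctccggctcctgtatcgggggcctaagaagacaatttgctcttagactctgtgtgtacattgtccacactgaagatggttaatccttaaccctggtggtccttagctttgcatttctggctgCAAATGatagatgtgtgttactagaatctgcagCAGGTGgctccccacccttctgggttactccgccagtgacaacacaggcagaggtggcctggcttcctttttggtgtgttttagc

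The Ccl3 window held 1 E-box, CATCTG, with its first base 28 bases before the start, and the Ccr2 window held 1, CACTTG, 108 bases before it. The Ccr9 window held 2, CAAATG at 118 and CAGGTG at 85 bases. CAGGTG, or CACCTG on the other strand, is a form that E proteins bind well and is contained in CANNTG. Of the 51 genes, 39 matched a window in the RefSeq table, and where a gene had several the first listed was counted. CAGGTG or CACCTG was present in 6 of these 39 (15.4%), against 15.6% of the 8207 windows of all genes with a named probe. By class it was in 2 of 27 ligand windows (7.41%) and 4 of 12 receptor windows (33.3%). These 6 were Ccl20, Ccl28, Ccr1l1, Ccr4, Ccr9 and Cxcr2, of which only Ccr4 and Ccr9 were above a floor. CANNTG was present in 29 of 39 (74.4%), against 60.6%. A match is a run of letters and does not show that a protein binds there.

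Among the other CC ligands, Ccl22 and Ccl17 act on Ccr4, a receptor of T helper and regulatory T cells. Ccl22 had 2.16 with E47ER and 2.19 with bHLHER, Ccl17 was below both floors, and Ccr4 itself had 2.0005 and 1.87. This ligand and its receptor were both measured and both nearly level, with log2 ratios of -0.02 and 0.10. Ccl21a, a lymph node ligand of Ccr7, had 1.498 with E47ER and 1.31 with bHLHER, and Ccr7 was below both floors, at 0.107 and 0.0864. The mouse has several near-identical Ccl21 genes, whose transcripts a probe may not separate, and the probe named Ccl21b was below both floors, at 0.347 and 0.346.

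Of 13 CXC ligand genes, 2 were above both floors. Cxcl12 (SDF-1), the stromal chemokine that retains stem and progenitor cells in bone marrow through Cxcr4, had 1.36 with E47ER and 1.83 with bHLHER, a log2 ratio of -0.43. Beside it, of 9 stromal and endothelial markers above both floors, 3 were at least 2-fold lower with E47ER (Bgn, Col6a1 and Timp3), none was at least 2-fold higher and 6 lay between, among them the endothelial gene Pecam1 at 0.40, and the median log2 ratio of the 9 was -0.81. Their part in the value of Cxcl12 was not tested. Cxcl17, a chemokine known from mucosal tissue, read 19.4 with E47ER and 18.8 with bHLHER, with a log2 ratio of 0.05. Cxcl1 (KC), a neutrophil attractant, lay at the floor, at 0.980 and 0.832, and was at least 1.03-fold higher with E47ER.

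The remaining neutrophil attractants Cxcl2 and Cxcl5 and their receptor gene Cxcr2 were below the floor on both arrays. So were Cxcl9 and Cxcl10, ligands induced by interferon, at 0.124 and 0.284 with E47ER. The platelet chemokines Pf4 and Ppbp were below it too, at 0.174 and 0.0815 with E47ER and 0.144 and 0.0515 with bHLHER. Of 8 platelet and megakaryocyte markers with a value, Gp9 alone was above the floor (1.28 and 1.20), and Itga2b (CD41) was at 0.106 and 0.0919.

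Xcr1, the receptor of cross-presenting dendritic cells, was the most even of the measured receptors, at 11.1 with E47ER and 11.2 with bHLHER, a log2 ratio of -0.01. Its ligand gene Xcl1, made by natural killer and T cells, was below both floors, at 0.716 and 0.783. Of 9 dendritic cell markers with a value, 4 were below both floors, namely H2-Aa, H2-Eb1, Cd83 and Ciita. Of the 5 above both floors, 2 were at least 2-fold higher with E47ER, Itgax (CD11c) by 3.70-fold and Irf8 by 7.55-fold. The other 3 lay between, such as Cst3 and Flt3 with log2 ratios of 0.01 and 0.13. Clec9a, which marks the same dendritic cells as Xcr1, had 1.32 and 1.08. The fractalkine gene Cx3cl1 and its receptor gene Cx3cr1 were below both floors, at 0.341 and 0.701 with E47ER.

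All 33 genes below both floors lay between 0.0273 and 0.716 with E47ER and between 0.0174 and 0.783 with bHLHER, and no ratio is given for them. They comprised 23 ligand and 10 receptor genes. The receptors were Ccr1l1, Ccr3, Ccr6, Ccr7, Ccr8, Ccr10, Cxcr2, Cxcr5, Cxcr6 and Cx3cr1. For Ccr6, Cxcr5 and Cxcr6 the ligands on the arrays, Ccl20, Cxcl13 and Cxcl16, were below both floors as well. So were Ccl11 and Ccl24, which are among the ligands of Ccr3 but are not all of them. The deposited intensities cannot show whether such genes were silent or only dim.

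**Figure D2:**
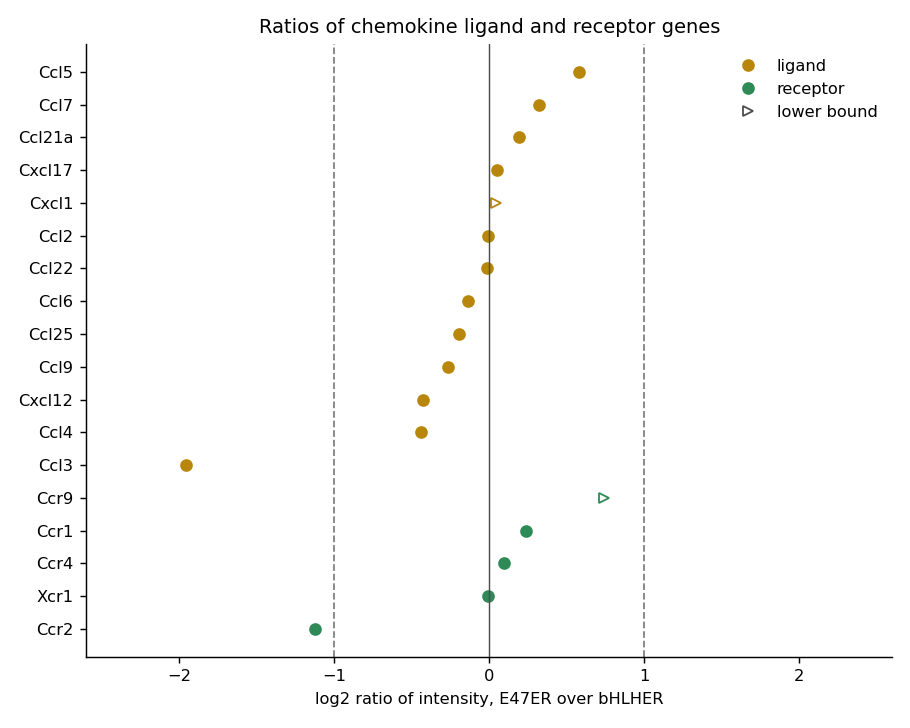
Log2 ratio of intensity, E47ER over bHLHER, for each chemokine gene above a floor, with ligands in gold, receptors in green, lower bounds as open triangles and dashed lines at 2-fold. Ccl3 at -1.95 and Ccr2 at -1.13 are the points beyond the lines, and the bounds are those of Ccr9 (0.74) and Cxcl1 (0.04).

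**Figure D3:**
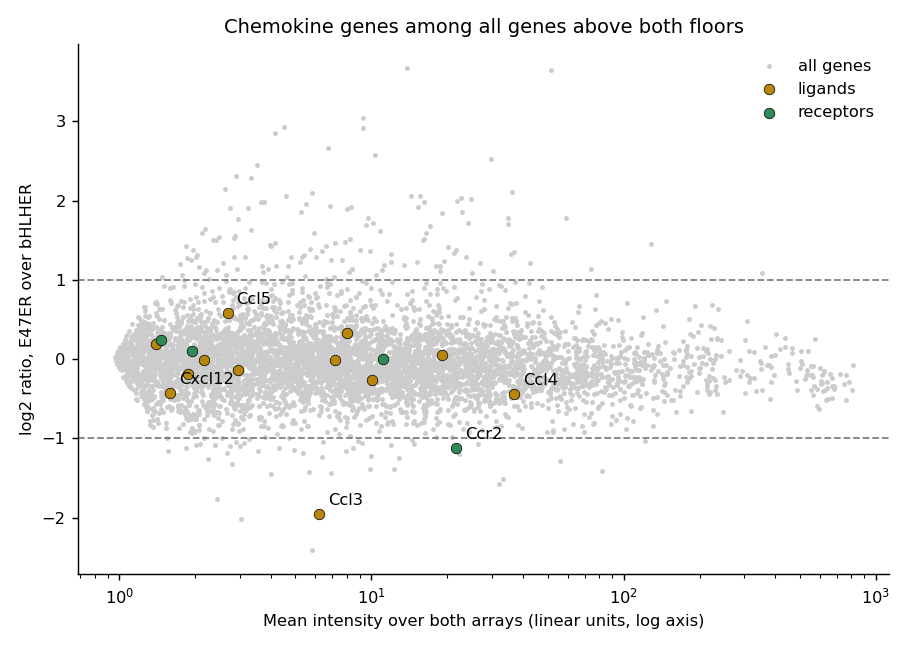
Log2 ratio against mean intensity over both arrays (log axis) for the 5534 genes above both floors (grey) and the chemokine ligand and receptor genes among them (coloured), with dashed lines at 2-fold. Ccl3 lies at the lower edge of all genes and Ccr2 just beyond the line, while the other 14 chemokine genes sit inside the cloud.

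By their mean over both arrays, Ccl3 and Ccr2 lay above 5.81, the 75th percentile over all probes. Most measured genes did so too, 3033 of 5534. On the E47ER array alone, Ccl3 at 2.53 was below the 75th percentile of 5.78. Among the 3033 genes with a mean intensity above 5.81, which include Ccl3 and Ccr2, 0.758% were called lower, against 0.880% of the 2501 dimmer genes. The middle 95% of log2 ratios ran from -0.77 to 0.96 in the brighter genes, so both values lay outside it.

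Genes that carry the chemokine signal inside the cell were mostly measured and mostly level. Of 29 chemokine receptor signalling genes with a value, 23 were above both floors, with 1 at least 2-fold higher with E47ER, 0 lower and 22 between, and a median log2 ratio of 0.19. Pik3cd, the catalytic subunit of the leukocyte phosphoinositide 3-kinase delta, had 4.55 with E47ER and 1.34 with bHLHER, 3.397-fold higher, although the lower value was near the floor. Fgr, a Src family kinase of myeloid cells, had 3.87 and 0.407 and was at least 4.06-fold higher. Gnai2, the inhibitory G protein subunit that most leukocyte chemokine receptors use, had 30.1 and 26.9, a log2 ratio of 0.16. Arrb2, an arrestin that switches receptors off, had 7.45 and 10.2, a ratio of -0.45. The list shares 4 genes, Dock2, Rac2, Vav1 and Was, with the pan-leukocyte list, whose median was 0.43.

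Regulators of G protein signalling, which shorten the receptor's signal, had 6 of 10 genes above both floors, with 1 higher, 0 lower and 5 between and a median of 0.25. Rgs10 had 23.6 with E47ER and 8.36 with bHLHER, 2.82-fold higher, and Rgs2 had 49.1 and 24.9, a log2 ratio of 0.98 just under the threshold. Rgs1, which dampens chemokine responses of B cells, was below both floors, at 0.135 and 0.183.

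Atypical receptors bind chemokines without the usual signal. A list of them and of other genes, not all of them receptors, had 3 of 7 genes above both floors and none past 2-fold. These 3 were Ackr2, Cmtm3 and Cmtm6, of which only Ackr2 is an atypical receptor. Ackr3, the second receptor for Cxcl12, had 1.11 with E47ER and 0.937 with bHLHER, with the floor between these values, and Ackr2, a scavenger of inflammatory CC ligands, had 1.26 and 1.30. Ccrl2 was below both floors. Among other chemoattractant receptors, 3 of 11 were above both floors and none passed 2-fold, while P2ry12, a receptor for adenosine diphosphate, passed the floor on the E47ER array alone and was at least 2.08-fold higher.

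Of 18 proteases and binding proteins that trim or hold chemokines, 12 were above both floors, with 0 higher, 1 lower and 11 between and a median of -0.16. The lower gene was Mmp8, the neutrophil collagenase, at 2.15 with E47ER and 5.87 with bHLHER, 2.73-fold lower. Of 12 neutrophil markers with a value, 9 were below both floors. The 3 above both were Mmp8, Prtn3 and Ctsg, the latter pair with log2 ratios of -0.02 and -0.21. A further list, called the inducer list below, held genes that induce chemokine genes. It also held genes that restrain such induction, namely Nfkbia, Tnfaip3 and Zfp36. Of its 26 genes with a value, 17 were above both floors, with 1 higher, 1 lower and 15 between and a median of 0.11. Tnf, a cytokine that induces many chemokines, was 2.28-fold lower with E47ER (1.63 against 3.73), and Irf1, an interferon response factor, was 2.08-fold higher (14.1 against 6.76). Irf1 was not called with centring on pan-leukocyte genes, Tnf was not called with the 75th percentile as floor, and neither was called at a size threshold of 1.5. Nfkbia, which encodes the inhibitor of NF-kappaB and is itself induced by it, had 38.2 and 24.0, a log2 ratio of 0.67.

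**Figure D4:**
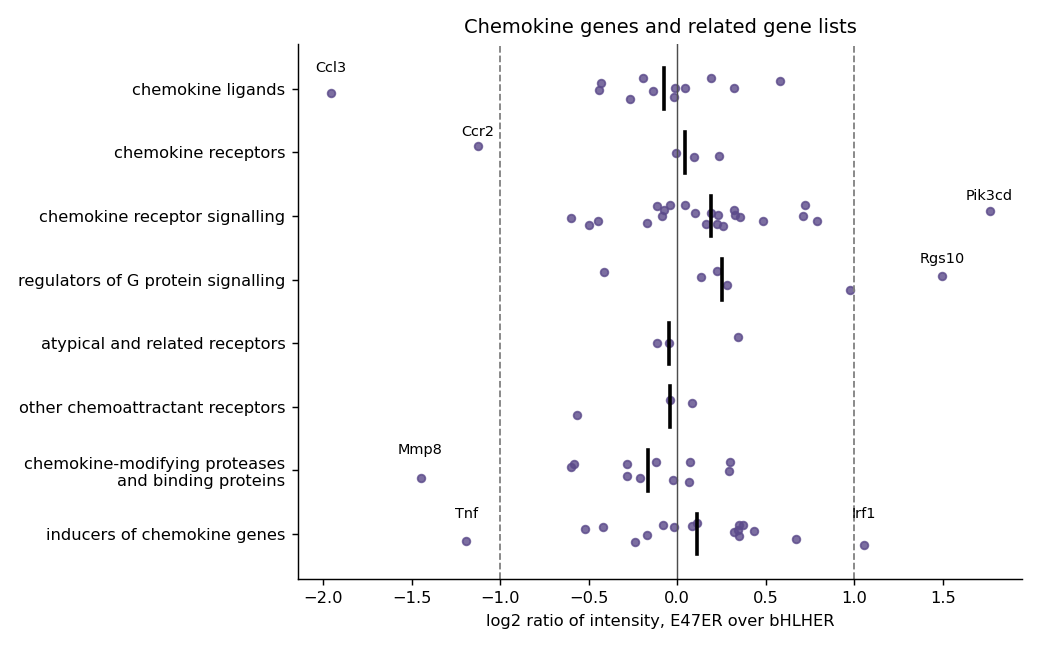
Log2 ratios of the genes above both floors in the chemokine ligand and receptor groups and in 6 related lists, 1 point a gene, with the median as a black bar, dashed lines at 2-fold and the genes beyond them named. Medians run from -0.16 for proteases and binding proteins to 0.25 for regulators of G protein signalling.

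The log2 ratios of Ccl3 and Ccr2 stayed below -1 under each alternative way of processing that gave them a value. The log2 ratio of Ccl3 ran from -2.38 to -1.87 over 8 alternatives and that of Ccr2 from -1.55 to -1.05 over 9. Some of these could not alter a ratio. A changed floor only decides whether a ratio is given, and each gene had 1 probe, so the mean over probes returned the same value. Only quantile normalization, loess, scaling, centring and the pseudocount could move it. With a floor at the 75th percentile Ccl3 had no ratio, since its E47ER value was below that floor, and at a size threshold of 1.5 Ccr2 was no longer called. With centring on pan-leukocyte genes, which lowers every log2 ratio by 0.43, the ratios of Ccl7, Ccl21a, Cxcl17, Ccr1 and Ccr4 went below 0 and that of Ccl5 went to 0.15, so the directions of these genes depend on that choice.

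**Figure D5:**
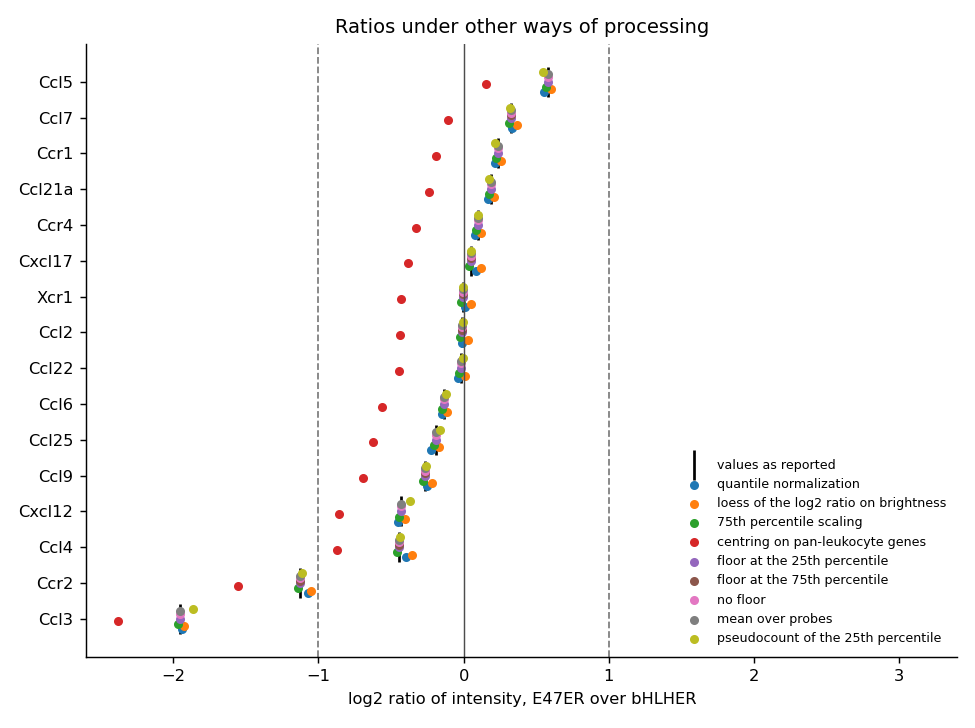
Log2 ratio of the 16 chemokine genes above both floors as reported (black bars) and under 9 other ways of processing (coloured points), with dashed lines at 2-fold. Ccl3 and Ccr2 stay beyond the lower line wherever they have a value. The floors and the mean over probes cannot move a point. The centring on pan-leukocyte genes (red) moves every gene to the left by the same amount.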

How the data were processed

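The table used was the value table of the series, with 1 column for each of the 2 arrays. Its values are intensities on a linear scale as deposited by the authors, with scaling and background removal not given in the sources used here. Both column medians were nearly equal, and the values were used without further normalization. The E47ER array had 119 probes without a value and the bHLHER array 125.

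Probes were named through the platform annotation, which gave 10349 probes 1 symbol each, none several and left 9940 unnamed. All 10349 gene identifiers matched RefSeq (GRCm38.p6), which was used for names, gene order and promoter windows. Of several probes of a gene the one with the highest mean was taken.

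With 1 array a group no test was possible, and no read depth exists: the number of arrays limits the precision. A bound set the value above the floor against the dim array's floor, or against the dim value if that was higher. The procedure was tested on simulated data. Members and lists were chosen with earlier results of these data known. Named were all members above a floor, and of each list up to 4 genes past 2-fold, plus Gnai2, Arrb2, Rgs1, Ackr3 and Ccrl2; other non-members named (such as Lztfl1, Nfkbia, Rgs2, Kit and Flt3) were chosen after their values were seen. Ligand and receptor pairs follow general knowledge.

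Alternatives were quantile normalization and loess (limma 3.58.1 in R 4.3.3), scaling to the 75th percentile, centring on pan-leukocyte genes, a floor at the 25th or at the 75th percentile or none, the mean over probes, a pseudocount of each array's 25th percentile and a log2 size threshold of 1.5. Other calculations used Python 3.11.15.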

Additional observations from a re-analysis of the deposited data

How the results depend on the processing

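No paired analysis was possible because both groups consist of 1 array, which also leaves no replicate to drop. Values were taken as moved past 0.266 on the log2 scale, and counts past 1.5 times. The 0.266 is the SD of a single probe's ratio, worked out from the probe pairs with the widest pair left out. The SD of the pair differences was 0.376 without that pair and 0.758 with it, so the limit would be wider with it kept. The count of 1 lower ligand, Ccl3, was 0 with a floor at the 75th percentile, where Ccl3 fell below the floor of the E47ER array, and the count of 1 lower receptor, Ccr2, was 0 with the size threshold of 1.5. With no floor, 4 ligands and 1 receptor were at least 2-fold higher and 2 receptors lower, the added ones all at intensities below both floors. The ligand median of -0.08 was -0.51 with centring on pan-leukocyte genes, and the receptor median of 0.05 was -0.38 with it and -0.57 with the 75th percentile as floor, which left 2 receptors. Over all genes, 128 were higher and 45 lower; these counts were 204 and 77 with the 25th percentile as floor, 43 and 16 with the 75th, 545 and 348 without a floor, 56 and 6 with the threshold of 1.5, and 63 and 376 with the centring. In the inducer list, the 1 higher gene, Irf1, was lost with the centring and the 1 lower gene, Tnf, with the floor at the 75th percentile. Both were lost with the threshold of 1.5. Pik3cd and Mmp8 were lost with the 75th percentile as floor, and Rgs10 and Mmp8 with the threshold of 1.5. The centring also turned the medians of chemokine receptor signalling genes to -0.24, regulators of G protein signalling to -0.18 and the inducer list to -0.31. Rgs2 passed 2-fold after quantile normalization and after loess, which gave 2 higher regulators. Quantile normalization, loess, scaling, the mean over probes and the pseudocount moved no ligand or receptor count. With 1 probe for each of these genes, the mean over probes could not move such a count. Ccl2, Ccl22 and Xcr1, all within 0.1 of 0, changed sign after loess, and Xcr1 also after quantile normalization.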
